A study of Oryza sativa with 6 samples.

Results

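The most abundant transcripts that the rice embryo axis holds after seed ageing were taken as the probe sets with a mean log2 expression value of at least 12 over all 6 arrays of the study. Genes named as heat shock proteins, numbered late embryogenesis abundant proteins, RAB dehydrins or numbered ribosomal proteins were left out. The rule gave 159 of 57258 probe sets that are no array control, or 0.278%, and 19 further probe sets reached the level but were left out by family. Each of the 159 passed the filter on low values used for the tests, a mean of at least 4. The members were thus chosen by their mean level over both groups, so their levels are given as a description, and the difference between the temperatures was not part of the rule.

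Embryonic axes came from mature seeds of Oryza sativa cultivar Nipponbare aged by controlled deterioration, in which seeds are kept warm and humid to mimic storage. The labels put 3 arrays in the 45 °C group, described as having lost the capacity to germinate, and 3 arrays in the 40 °C group, described as having lost vigour. All seeds first took up moisture for 3 days at 25 °C and 85% relative humidity, were held at 45 or 40 °C and 85% for 14 days, and were then dried back for 3 days at 25 °C and 32%. The sample descriptions put the warm step at 15 days instead. Unheated control seeds at 25 °C are mentioned in the labels and were not analysed here, so each difference is between 2 ageing treatments and not against fresh seed. Total RNA was amplified from 50 ng and hybridised to the Affymetrix Rice Genome Array. The labels do not say whether replicates were separate seed batches, and the p-values below therefore describe only the variation among these 6 samples, part or all of which may be technical.

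A dry seed carries messenger RNA made while it matured on the plant, and these stored messages can be translated in the first hours after imbibition, before new transcription takes over. Messages for translation factors, antioxidants, metal-binding proteins and proteins that protect dry cells are common in such pools in cereal seeds. RNA breaks down slowly in dry storage and faster in warm, moist storage, and a seed too dry for normal metabolism has little means to replace it.

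Of the 159 probe sets, 107 have 1 gene in the platform annotation, 4 have several and 48 have none listed. The 107 stand for 96 genes, of which 31 have a name and 65 are known by a locus number alone. They lie on all 12 nuclear chromosomes, and 1 of them, cob, in the mitochondrial genome. In the gene order of assembly ASM3414082v1, used here for names and neighbours only, a single pair of member genes stood side by side with 0 genes between them, pinA and RBTI on chromosome 1. A total of 9 genes had more than 1 member probe set, and 64 probe sets have an ID ending that marks a target shared by several transcripts. Signal depends on the probes as well as on the transcript, so the order of probe sets below is an order of signal and not of molecules.

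At the threshold, the members just inside were LOC4350789 with a mean of 12.01, eIF-4A-1 with 12.01 and LOC4323890 with 12.004. Just outside were SAMDC with 11.99, LOC4326165 with 11.99 and LOC4346540 with 11.98. On single arrays, 128, 137 and 144 of the 159 reached 12 at 45 °C, against 148, 133 and 155 at 40 °C, and 99 did so on all 6 arrays. Had the 45 °C mean alone been used, 149 probe sets would have qualified, against 169 by the 40 °C mean. The 132 that qualified by both were 88.6% of the 45 °C list and 78.1% of the 40 °C list.

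The label of the tissue was compared with marker genes. Of 13 embryo marker names, 4 could be matched, and all 4 were at 4 or above. They were OSEM, the member listed as EM, at a mean of 13.62, VP1 at 8.97, OSH1 at 6.49 and GLB, also on the endosperm list, at 6.55. The list's 1-Cys Prx was not matched by name, although the member R1C-Prx, a 1-Cys peroxiredoxin, had a mean of 13.02. The median of the 4 was 7.84, 7.49 and 7.83 on the 45 °C arrays, against 7.90, 8.27 and 7.82 on the 40 °C arrays, with overlap. Of 28 endosperm names, 13 were matched. Of these 13, 11 lay at 4 or above, 0 reached 12, and GluB-4 was near the floor at 1.26. Endosperm genes not matched by name may still be among the members, and the 0 does not cover them. The endosperm list's median level was 7.94, 8.51 and 8.06 on the 45 °C arrays, against 7.99, 7.14 and 8.42 on the 40 °C arrays, so the groups overlapped. Its highest gene was the allergen RA14, with a mean of 11.22 at 45 °C and 11.23 at 40 °C. All 3 aleurone markers matched lay at 4 or above. The list's median was that of a single gene, CHI, with 6.40, 6.26 and 6.18 on the 45 °C arrays. It had 6.60, 6.77 and 6.42 on the 40 °C arrays, so these groups did not overlap. AMY1A did overlap, with 4.70, 4.47 and 5.25 at 45 °C against 4.70, 6.60 and 5.22 at 40 °C. The log2 of the list's summed signal did not overlap either, with 8.60 to 8.92 at 45 °C against 9.12 to 9.61 at 40 °C. That sum is led by the brightest of the 3, LTP, at a mean of 8.62. Over all tested probe sets the groups did not overlap in 28.7%. Of the green tissue markers, 2 were matched: RBCS had a mean of 5.03 and CAB2R of 2.30. The part of these other cell types in the results was not tested. In a bulk sample such as this, fewer cells of a type and less RNA per cell cannot be told apart.

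No member differed between the temperatures past the adjusted threshold. In limma's fit over 22214 probe sets, 0 members and 0% of all tested probe sets had an adjusted p under 0.05, and the smallest adjusted p was 0.130 among members and 0.108 over all tested. At an unadjusted p under 0.05 there were 29 members, or 18.2%, of which 11 were higher and 18 lower at 45 °C. The background was 19.2% of all tested, 5.37% higher and 13.8% lower. The arrays of the groups did not overlap in 50 members, or 31.4%, of which 15 were higher and 35 lower at 45 °C, against a background of 28.7%, with 10.8% higher and 17.8% lower. Both shares of members lay near their background. Other fits called a few members at the adjusted threshold: 4 with limma array weights, where the background was 0.869%, 3 without 40 °C replicate 2 (background 0.311%) and 1 with RNA quality as a covariate (background 0.198%).

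The members' differences were small in size. Their median log2 change, 45 °C minus 40 °C, was -0.05, with 60 higher and 99 lower (62.3%), beside -0.17 for all tested, of which 35.6% were higher and 64.4% lower. The changes ran from -0.65 to 1.003, and the median absolute change was 0.14, beside 0.35 for all tested. An absolute change of 0.5 or more was measured in 6 members (3.77%), against a background of 32.8%. The 95% interval of the change lay inside -0.5 to 0.5 for 106 members, or 66.7%, against a background of 5.03%, and inside -1 to 1 for 153 members, or 96.2%, against 47%. A missed threshold does not show that levels were equal. These intervals give how large a difference the arrays leave room for under the deposited scaling and limma's intensity trend only. Other settings would shift or widen them, and intervals were not counted there. Median centring moved the members' median change to 0.21. Without the intensity trend, 7 members had an unadjusted p under 0.05 in limma's fit, against 29 with it.

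Small differences went with high level over the whole array. The median absolute log2 change was 0.21 for probe sets with a mean of 10 to 11 and 0.18 for the 366 with a mean of 11 to 12, and the median spread within a group was 0.18 and 0.15. Among members the median absolute change was 0.16 for the 128 below 13 and 0.12 for the 31 at 13 or above. Their median spread within a group was 0.13 and 0.10 in that order. Intervals inside -0.5 to 0.5 were found for 34.1% of probe sets at 10 to 11, 52.5% at 11 to 12, 61.7% of members below 13 and 87.1% of members at 13 or above. The 19 probe sets of the left-out families had a median change of -0.13, with 18 of 19 lower at 45 °C and 9 not overlapping, each of these lower. As shares these were 94.7% and 47.4%, beside 77.4% and 22.5% of all tested probe sets with 1 gene. After each array was centred on its median, 14 of the 19 were higher and 5 lower. After quantile normalization or cyclic loess, 3 were higher and 16 lower. The box plot of changes by level shows the narrowing.

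**Figure D1:**
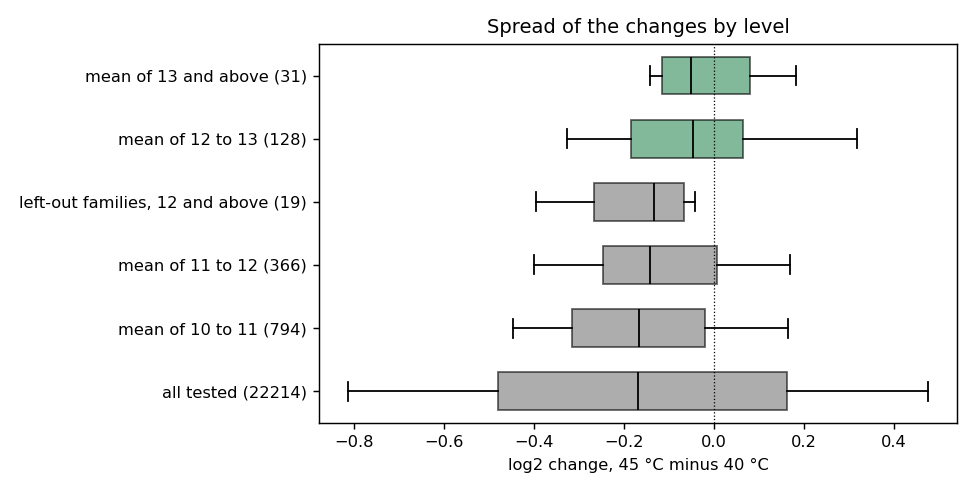
Log2 change, 45 °C minus 40 °C, by mean level over 6 arrays; boxes hold the middle of each set with its median as a line, whiskers run from the tenth to the ninetieth percentile, green boxes are the members, and counts of probe sets stand in parentheses. The boxes narrow with rising level, and the medians of the members at 13 and above (-0.05) and below 13 (-0.05) lie nearer to 0 than that of all tested (-0.17).

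Bacterial and phage transcripts hybridised as controls, which do not come from the seed, differed between the groups by an amount that also fell off with level. BioB had a mean of 8.64 on the 45 °C arrays and 7.16 on the 40 °C arrays, a difference of 1.49 (exact two-sided permutation p = 0.1, the smallest that 3 against 3 allows). BioC had 12.16 at 45 °C and 11.25 at 40 °C, a difference of 0.91 (exact p = 0.1). BioD had 13.53 at 45 °C and 13.15 at 40 °C, a difference of 0.38 (exact p = 0.3), and Cre, the brightest, had 14.34 at 45 °C and 14.29 at 40 °C, a difference of 0.05 (exact p = 0.3). Whether the same holds for the members' small changes was not tested. The ribosomal RNA probe sets gave a difference of 0.34 for 18S and 0.69 for 25S and 28S, both with groups that did not overlap, and 0.03 for 5.8S.

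**Figure D2:**
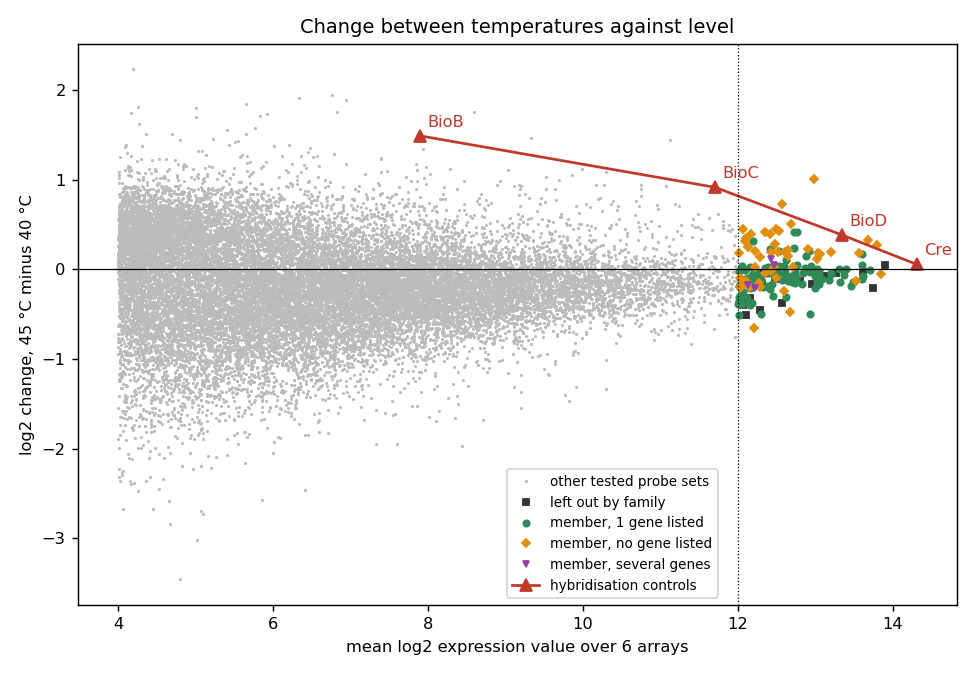
Log2 change, 45 °C minus 40 °C, against the mean log2 value over 6 arrays for all tested probe sets (grey), the members by annotation, the left-out families and 4 hybridisation controls (red triangles, each the mean of its probe sets). The cloud narrows to the right of the dotted line at 12, and the controls' differences fall off from 1.49 for BioB to 0.05 for Cre.

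Member levels per array were close. The median member stood at 12.44, 12.51 and 12.58 on the 45 °C arrays and at 12.47, 12.45 and 12.55 on the 40 °C arrays. The members' share of the summed linear signal was 15.46%, 15.67% and 15.97% at 45 °C, against 14.49%, 13.83% and 14.78% at 40 °C, so the groups did not overlap. Over all tested probe sets the array medians ran the other way, 6.23 to 6.25 at 45 °C against 6.45 to 6.55 at 40 °C. Centring each array on that median moved the median change of all tested from -0.17 to 0.09 and that of the members from -0.05 to 0.21, with 140 higher and 19 lower. Quantile normalization over tested probe sets gave members a split of 81 higher and 78 lower, and cyclic loess gave 84 higher and 75 lower. The direction of the members as a set therefore turned with the scaling, and the sign changed for 80 of the 159 when arrays were centred, for 21 with quantile normalization and for 24 with cyclic loess.

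The arrays were not alike in quality. Correlations over tested probe sets were 0.939 to 0.946 among the 45 °C arrays and 0.981 between 40 °C replicates 1 and 3, whereas 40 °C replicate 2 gave 0.927 and 0.935 with the other two of its group. The mean 3-prime minus 5-prime log2 difference of rice control transcripts, which grows as RNA is broken or copied short, was 1.66, 1.66 and 2.03 at 45 °C and 1.74, 2.99 and 1.92 at 40 °C (exact p = 0.5). RNA yield averaged 48.7 ± 7.02 µg at 45 °C and 58.7 ± 8.14 µg at 40 °C (SD, n = 3 each, exact p = 0.3). Changes of the members described below that 40 °C replicate 2 moved by over 1.5 times and by more than 0.1 on the log2 scale are given with and without it.

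Transcripts for protein synthesis included GOS2, the named member of highest signal, and QM1, the one with the smallest SD over the 6 arrays. GOS2, a translation initiation factor of the eIF1 type, had log2 values of 13.67, 13.68 and 13.75 at 45 °C and 13.62, 13.76 and 13.73 at 40 °C. Its change was -0.01 ± 0.07 (SE), with a 95% interval of -0.16 to 0.15, and the groups overlapped. A second GOS2 probe set, also a member, had 13.22, 13.37 and 13.32 at 45 °C and 13.44, 12.93 and 13.54 at 40 °C, again with overlap. Its change was -0.002, and -0.19 without 40 °C replicate 2. The gene's remaining probe set was dim, at 4.29, and gave 0.56.

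QM1, which encodes a ribosomal protein of the large subunit whose name lies outside the left-out pattern, had 12.08, 12.05 and 12.02 at 45 °C and 12.04, 11.99 and 12.10 at 40 °C. Its SD over all 6 arrays was 0.04, and its change was 0.01 with an interval of -0.18 to 0.19. Its other 3 probe sets lie lower, at 6.39 to 9.47, and their changes spread from -0.67 to 0.60. 60SP0, the acidic ribosomal protein P0 of the large subunit stalk, had a change of -0.11. TCTP, the translationally controlled tumour protein found across eukaryotes, had 12.96, 13.03 and 13.11 at 45 °C and 13.03, 13.22 and 13.18 at 40 °C, a change of -0.11 with overlap, and its second member probe set gave -0.06.

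eIF-4A-1, an RNA helicase that unwinds messages for the scanning ribosome, was the one translation member whose arrays did not overlap. It had 11.82, 11.70 and 11.97 at 45 °C and 12.03, 12.51 and 12.03 at 40 °C, a change of -0.36 ± 0.15 (SE; limma adjusted p = 0.257), and all 45 °C arrays lay below all 40 °C arrays. Its highest value was on 40 °C replicate 2, and without that array the change was -0.20. Its other probe set, at 11.49, gave -0.30. Of the 7 probe sets of these 5 translation genes, 6 were lower and 1 higher at 45 °C as deposited, 1 was lower after median centring and 4 after quantile normalization or cyclic loess. Across the array, all 6 tested genes named as initiation factors were lower at 45 °C, 2 of them at an unadjusted p under 0.05 and 0 past the adjusted threshold, beside 77.4% lower and 16.8% lower at that p among all tested probe sets with 1 gene, with a median of -0.29 that was -0.03 after median centring.

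**Figure D3:**
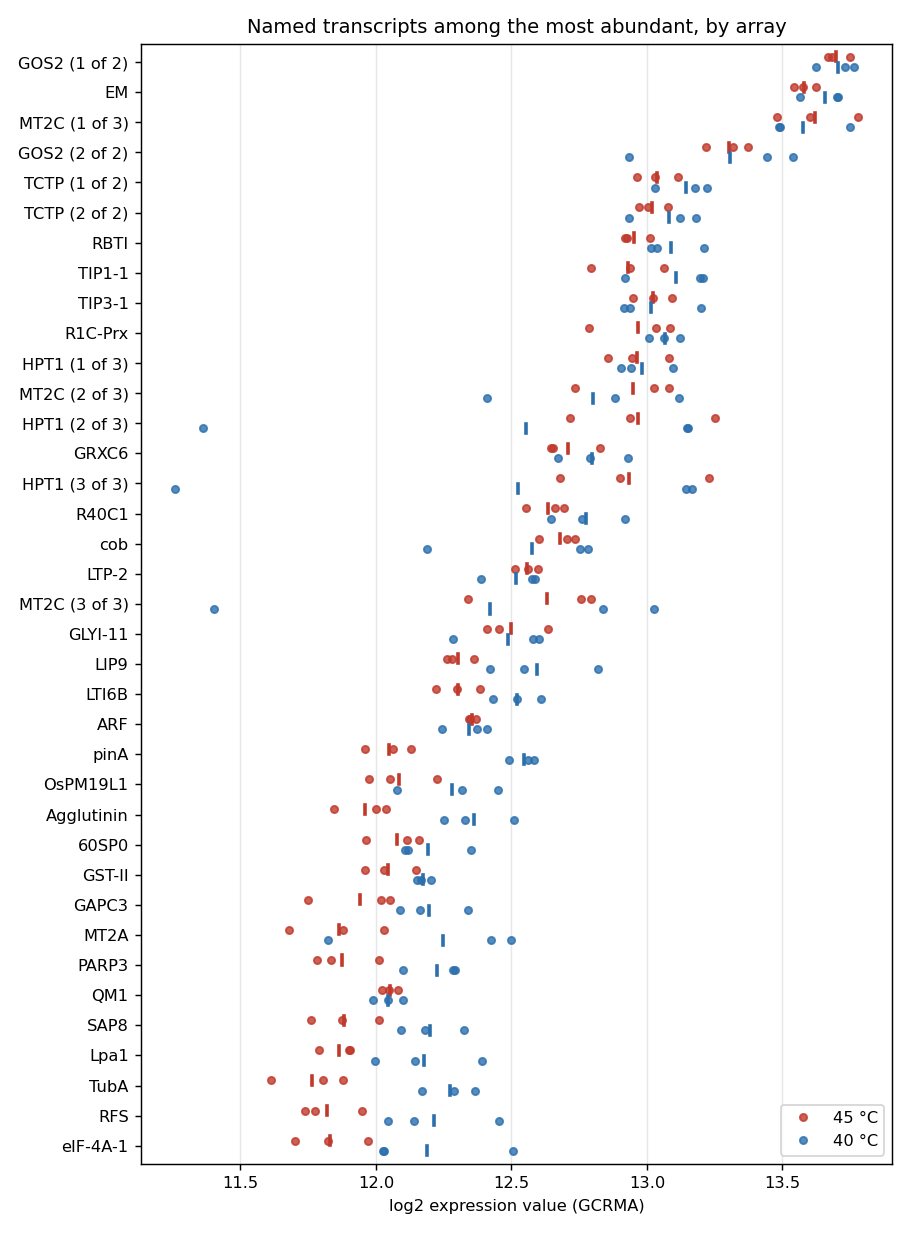
Log2 expression value on each array for the 37 member probe sets with a gene name, ordered by mean level, with 45 °C points above 40 °C points in each row and bars at the group means. Most rows overlap, 13 rows have all 45 °C points below all 40 °C points, and single low points at 11.26 to 11.40 in HPT1 and MT2C belong to 40 °C replicate 2.

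Proteins tied to drying and abscisic acid formed a second group. EM, also called Osem, is an Em protein of the late embryogenesis abundant kind, hydrophilic proteins that build up as the embryo dries, and its name escaped the left-out pattern. It had 13.54, 13.58 and 13.62 at 45 °C and 13.56, 13.71 and 13.70 at 40 °C, a change of -0.08 ± 0.07 (SE) with an interval of -0.23 to 0.08. The groups overlapped, since 40 °C replicate 1 lay below 2 of the 45 °C arrays.

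LIP9 is a dehydrin, another such protective protein, and had 12.36, 12.26 and 12.28 at 45 °C and 12.42, 12.82 and 12.55 at 40 °C. Its change was -0.29 ± 0.11 (SE; limma adjusted p = 0.233), or -0.18 without 40 °C replicate 2, where it was highest, and the groups did not overlap. SAP8, a zinc finger protein of the A20/AN1 stress-associated family, had 11.76, 11.88 and 12.01 at 45 °C and 12.09, 12.32 and 12.18 at 40 °C, a change of -0.32 (limma adjusted p = 0.204) without overlap.

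LTI6B, a small hydrophobic membrane protein induced by cold, had 12.22, 12.30 and 12.38 at 45 °C and 12.43, 12.61 and 12.52 at 40 °C, a change of -0.22 without overlap. OsPM19L1, a membrane protein of the AWPM-19 type, gave -0.20 with overlap, and its other probe set at 11.67 gave 0.44. R40C1, an abscisic acid responsive protein with lectin-like domains, gave -0.14, and -0.07 without 40 °C replicate 2. All 6 probe sets of these genes were lower at 45 °C, and 3 were at an unadjusted p under 0.05, beside 77.4% lower and 16.8% lower at that p among all tested probe sets with 1 gene, yet 4 of the 6 were higher after median centring, while all 6 stayed lower after quantile normalization and cyclic loess. Of 11 tested genes named as stress-associated zinc finger proteins, 5 were higher and 6 lower, 2 at an unadjusted p under 0.05.

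Antioxidant and detoxifying enzymes showed little difference. R1C-Prx, the 1-Cys peroxiredoxin typical of cereal embryo and aleurone, had 12.79, 13.03 and 13.08 at 45 °C and 13.01, 13.06 and 13.12 at 40 °C, a change of -0.10 with an interval of -0.32 to 0.12. GRXC6, a glutaredoxin, which reduces disulphides with glutathione, had 12.65, 12.66 and 12.83 at 45 °C and 12.67, 12.79 and 12.93 at 40 °C, a change of -0.09. Both overlapped between the groups.

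GLYI-11, a glyoxalase I that removes methylglyoxal, had 12.41, 12.45 and 12.64 at 45 °C and 12.28, 12.60 and 12.58 at 40 °C, a change of 0.01. GST-II, a glutathione transferase, had 11.96, 12.03 and 12.15 at 45 °C and 12.15, 12.20 and 12.17 at 40 °C, a change of -0.13 with groups that almost touched. Of 4 tested peroxiredoxin genes, 1 was higher and 3 lower, of 13 glutaredoxins 4 were higher and 9 lower, and of 6 glutathione transferases 3 were higher and 3 lower. Their medians of -0.10, -0.17 and -0.03 turned positive after median centring, and 0 genes of these families passed the adjusted threshold.

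HPT1, homogentisate phytyltransferase, starts the tocopherol branch of vitamin E synthesis, but the annotation of its members is in doubt. Of its 3 member probe sets, 1 shares its ID stem with a probe set listed under LOC4328390 and the other two share theirs with one that has no gene listed. One had 12.86, 12.95 and 13.08 at 45 °C and 12.94, 12.90 and 13.10 at 40 °C. The other two stood at 11.36 and 11.26 on 40 °C replicate 2, against 12.68 to 13.25 on all other arrays, and their changes were 0.41 each with that array, -0.18 and -0.22 without it. The gene's remaining 3 probe sets lie at 8.92 to 9.90 and gave -0.60 to -0.40.

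Metallothioneins, small cysteine-rich proteins that bind metals and scavenge radicals, supplied 2 genes. MT2C, also listed as OsMT2b, had 13.48, 13.60 and 13.78 at 45 °C and 13.49, 13.49 and 13.75 at 40 °C, a change of 0.04 with an interval of -0.20 to 0.29. Its other member probe sets gave 0.14 and 0.21, and the last of these read 11.40 on 40 °C replicate 2 and 12.84 and 13.03 on the other two 40 °C arrays. Without that array the 3 changes were 0.00, -0.05 and -0.30. The gene's remaining probe sets lie just below the level of the rule, at 11.41 to 11.48. Over all arrays they gave larger changes, 0.47 to 0.50.

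MT2A had 11.68, 11.88 and 12.03 at 45 °C and 12.43, 11.82 and 12.50 at 40 °C, a change of -0.39 ± 0.19 (SE; limma adjusted p = 0.297) with overlap through replicate 2, and -0.60 without it. Of 4 tested metallothionein genes on the array, 1 was higher and 3 lower, 1 of the lower ones at an unadjusted p under 0.05. Among all tested probe sets with 1 gene, 77.4% were lower and 16.8% lower at that p. The family's median was -0.47 and stayed below 0 under each scaling. It rests in part on dim genes, since MT1A, the one at that p, had a mean of 5.60 and MT1B of 4.34.

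Aquaporins of the tonoplast, the vacuole membrane, were present as 2 members. TIP3-1 belongs to the subfamily found in seed storage vacuoles and had 13.09, 12.95 and 13.02 at 45 °C and 12.94, 13.20 and 12.91 at 40 °C. Its change was 0.004 with an interval of -0.22 to 0.23. TIP1-1 gave -0.18 with overlap, and its other probe set, at 11.80, gave 0.14. Of 10 tested aquaporin genes, 5 were higher and 5 lower.

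Defence and inhibitor proteins made up a further group. RBTI, a Bowman-Birk trypsin inhibitor, had 12.92, 12.93 and 13.01 at 45 °C and 13.02, 13.21 and 13.04 at 40 °C, a change of -0.14 ± 0.08 (SE; limma adjusted p = 0.375), or -0.07 without 40 °C replicate 2, with groups that did not overlap but lay next to each other. Its chromosomal neighbour pinA had 12.06, 12.13 and 11.96 at 45 °C and 12.58, 12.56 and 12.49 at 40 °C, a change of -0.50 ± 0.08 (SE; limma adjusted p = 0.155). All 3 arrays of pinA at 45 °C lay well below all 3 at 40 °C.

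The gene listed as Agglutinin, a carbohydrate-binding lectin, had 11.999, 12.04 and 11.85 at 45 °C and 12.25, 12.33 and 12.51 at 40 °C, a change of -0.40 ± 0.10 (SE; limma adjusted p = 0.175) without overlap. LTP-2, a lipid transfer protein, had 12.56, 12.51 and 12.60 at 45 °C and 12.58, 12.39 and 12.59 at 40 °C, a change of 0.04 with overlap. Of 5 tested genes named as lipid transfer proteins, 1 was higher and 4 lower, with a median of -0.21 that was 0.04 after median centring.

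TubA, an alpha-tubulin of the microtubules, had the largest lower value among named members. It had 11.88, 11.80 and 11.61 at 45 °C and 12.29, 12.37 and 12.17 at 40 °C, a change of -0.51 ± 0.10 (SE; limma adjusted p = 0.163). The groups were clearly apart, and its other 2 probe sets gave -0.51 and -0.44. Of 10 tested tubulin genes, 9 were lower and 1 higher, with 4 of the lower ones at an unadjusted p under 0.05 and 0 past the adjusted threshold. Among all tested probe sets with 1 gene, 77.4% were lower and 16.8% lower at that p. The median of the tubulin genes was -0.46, and -0.20 after median centring.

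In metabolism, Lpa1, a gene needed for normal phytic acid content, had 11.79, 11.90 and 11.90 at 45 °C and 11.997, 12.39 and 12.15 at 40 °C, a change of -0.31 without overlap, and -0.21 without 40 °C replicate 2. GAPC3, a cytosolic glyceraldehyde-3-phosphate dehydrogenase of glycolysis, gave -0.26 without overlap, and its other probe set at 9.44 gave 0.73, so that the 2 disagree in direction. PARP3, RFS and ARF were placed outside the metabolism group. PARP3 is a poly(ADP-ribose) polymerase, an enzyme class that responds to DNA breaks. It had 11.78, 12.01 and 11.83 at 45 °C and 12.29, 12.10 and 12.29 at 40 °C. Its change was -0.35 (limma adjusted p = 0.184), without overlap. RFS and ARF are given by their listed names alone. RFS gave -0.39 without overlap, and ARF gave 0.01 with an SD of 0.06 over the 6 arrays.

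The mitochondrial message cob, for cytochrome b of the respiratory chain, had 12.71, 12.73 and 12.60 at 45 °C and 12.75, 12.19 and 12.78 at 40 °C. Its change was 0.10 with overlap, and -0.09 without 40 °C replicate 2, the array on which it was low. In all, 23 of the 31 named genes had every member probe set lower at 45 °C, 7 had every one higher and 1 was mixed. Of the 65 known by locus number, 51 were lower, 13 higher and 1 mixed. Among all tested probe sets with 1 gene, 77.4% were lower. After median centring, the 37 named member probe sets were 26 higher and 11 lower, and the 70 known by locus number 64 higher and 6 lower. Quantile normalization gave 14 higher and 23 lower, and 30 higher and 40 lower, in that order. Among the 30 genes with more than 1 tested probe set, the probe sets differed in sign in 14.

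Members known only by locus number had mostly small changes. Their 70 probe sets had changes between -0.50 and 0.32 with a median of -0.07, and 61 had an interval inside -0.5 to 0.5. LOC4351208 stood apart, with 12.60, 12.72 and 12.72 at 45 °C and 13.13, 13.23 and 13.20 at 40 °C, a change of -0.50 ± 0.07 (SE) and the smallest adjusted p of all members in limma's fit, 0.130. Its arrays were far from overlapping, but its other probe set gave -0.06. LOC4344438 was among the 10 of highest signal and had 13.63, 13.67 and 13.77 at 45 °C and 13.54, 13.41 and 13.62 at 40 °C, a change of 0.17 with groups that barely missed each other. LOC4328390, also among those 10, gave -0.11 with overlap, and its second member probe set gave -0.12 without overlap. Its remaining probe sets lie far lower, at 4.34 to 6.55, and gave 0.27 to 0.49.

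The 48 probe sets without a listed gene and the 107 with 1 gene had medians of opposite sign, a split made after values had been seen and therefore not tested. Of the 48, 32 were higher and 16 lower at 45 °C, with a median of 0.18, and of the 107, 26 were higher and 81 lower, with a median of -0.08. Of those without overlap, 12 were higher and 4 lower in the 48, against 3 higher and 31 lower in the 107. As shares these were 25.0% higher and 8.33% lower in the 48, beside 24.7% and 10.3% of all tested probe sets with no gene listed, and 2.80% higher and 29.0% lower in the 107, beside 2.15% and 22.5% of all tested with 1 gene. The same split over all tested probe sets gave a median of 0.10 with no gene listed, 56.3% of them higher, and -0.26 with 1 gene, 77.4% of them lower. At a mean of 11 to 12 the medians were -0.02 and -0.15 in that order.

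Much of the median's shift was seen with 1 array and not without it. The lowest of the 6 values fell on 40 °C replicate 2 in 25 of the 48 (52.1%), against 16 of the 107 (15.0%). Without that array the median of the 48 was 0.03, with 27 higher and 21 lower. That array also had the largest 3-prime minus 5-prime difference, and the part of RNA quality in this pattern was not tested.

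**Figure D4:**
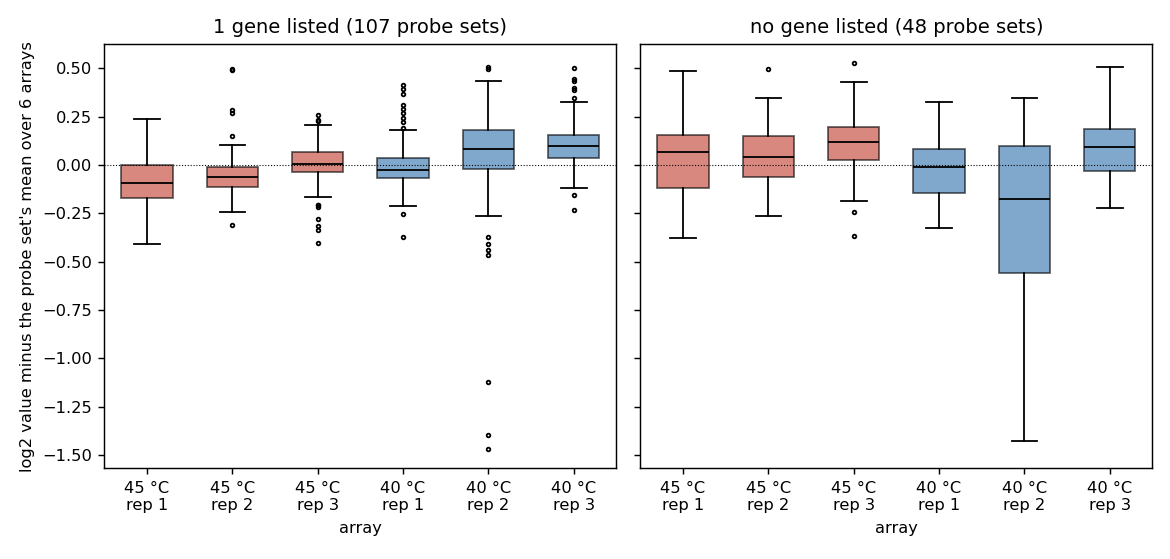
Deviation of each member's log2 value from its own mean over 6 arrays, by array, for the 107 members with 1 gene listed and the 48 with none; boxes hold the middle of the probe sets with the median as a line, and points lie beyond the whiskers. For members with no gene listed, 40 °C replicate 2 has the lowest median and a long lower tail.

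The 7 largest higher values came from probe sets without a listed gene. Os.20371.1.A1_at had 13.47, 13.48 and 13.51 at 45 °C and 12.95, 11.56 and 12.94 at 40 °C, a change of 1.003 ± 0.34 (SE; limma adjusted p = 0.207). Without 40 °C replicate 2 it was 0.54, with a limma adjusted p of 0.0320. All 45 °C arrays lay above all 40 °C arrays with or without that array.

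OsAffx.32292.1.A1_at had 12.89, 12.92 and 12.996 at 45 °C and 12.32, 11.85 and 12.44 at 40 °C, a change of 0.73 ± 0.15 (SE; limma adjusted p = 0.164), and 0.55 without 40 °C replicate 2 (limma adjusted p = 0.0411). OsAffx.32292.1.S1_x_at, of the same ID stem, gave 0.50, and 0.27 without that array. OsAffx.24369.1.S1_s_at, among the 3 brightest of all probe sets at the rule's level, had 13.84, 13.96 and 14.01 at 45 °C and 13.55, 13.78 and 13.67 at 40 °C, a change of 0.27 without overlap. OsAffx.24369.1.S2_at gave 0.33, so both probe sets of that stem were higher on every 45 °C array than on any 40 °C array.

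Of the members, 14 had array IDs numbered between 32200 and 32350 in the OsAffx series, a run singled out after its values were seen. None of the 14 has a listed gene, 13 were higher at 45 °C, their median was 0.33, and 13 had their lowest value on 40 °C replicate 2. Without that array 11 were higher and the median was 0.10. All 235 tested probe sets of the run had a median of -0.38, with 99 higher and 136 lower, while the 23 with a mean of 11 to 12 had a median of 0.39, with 15 higher.

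The exception among those 14 was OsAffx.32263.1.A1_at, the member of largest lower value. It had 11.87, 11.95 and 11.84 at 45 °C and 12.54, 12.35 and 12.72 at 40 °C, a change of -0.65 ± 0.11 (SE; limma adjusted p = 0.154). The limma adjusted p was 0.0278 with array weights, 0.0452 with the 3-prime minus 5-prime difference as a covariate and 0.0377 without 40 °C replicate 2, so it passed the threshold in each of these 3 fits. Os.9836.1.S1_at, with no gene listed, had 12.29, 12.57 and 12.43 at 45 °C and 12.96, 12.71 and 13.08 at 40 °C, a change of -0.48 without overlap.

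**Figure D5:**
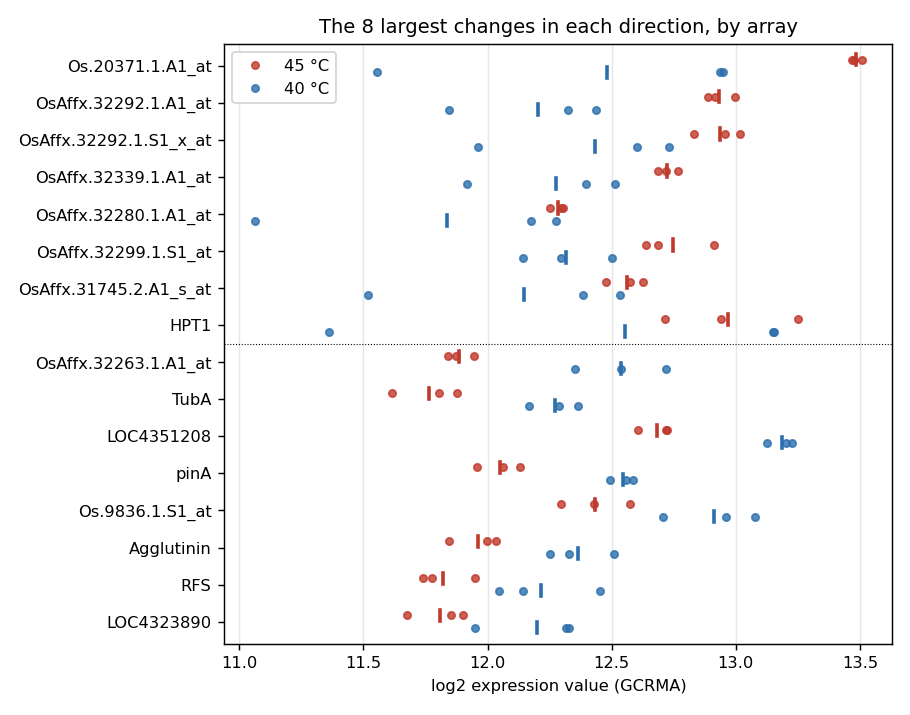
Log2 expression value on each array for the 8 members with the largest higher and the 8 with the largest lower value at 45 °C (above and below the dotted line), with 45 °C points above 40 °C points in each row and bars at the group means. In all but 1 of the upper rows the lowest 40 °C point lies well left of the other two, OsAffx.32299.1.S1_at being the exception, and in each lower row all 45 °C points lie left of all 40 °C points, by a narrow gap for LOC4323890 and RFS.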

How the data were processed

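The deposited values are on a log2 scale and were made by the authors with GCRMA, per the submitters' processing notes, of which no version is known here. Values ran from 0.563 to 14.6, and 0 value columns were left unused. Of 57381 probe sets, 123 were array controls. For probe sets with a mean of at least 4, the 45 °C and 40 °C arrays were compared by limma (version 3.58.1, R 4.3.3) through lmFit and trended eBayes, two-sided, with Benjamini-Hochberg adjustment at 0.05 over all 22214. The step was run on simulated data with independent noise and added changes larger than nearly all those of the members. That run therefore does not bear on finding changes of the members' size. The values are array signals, so no read depth applies. The comparison rests on 3 arrays in each group, and what limits its precision was not tested.

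Genes came from the platform annotation: 22436 probe sets had 1 gene, 95 several and 34727 none listed. The family patterns were read without regard to case. Named members were, by rule, the 20 brightest with a gene name, the 10 brightest of all, the 8 of largest change each way (with and without a name), the 5 named with smallest SD, role groups, and 3 on each side of the level. The members, role groups and families were chosen with earlier results of these data known. After values had been seen, RFS was moved out of the metabolism group, and the aquaporin and peroxiredoxin patterns were narrowed to drop unrelated genes with similar names. The 3-prime minus 5-prime value is the mean over 5 rice control sets; 1 actin probe set was exchanged for its partner after first values were seen. Alternatives covered the low-level filter, scaling, trend, array weights, this covariate, a replicate block, each array left out, shared-target probe sets, 1 probe set per gene and the member level. Deviations from the group means correlated at -0.143 to 0.0303 between arrays of the same replicate number. With 3 arrays in each group, these values cannot decide whether the samples were paired.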

Additional observations from a re-analysis of the deposited data

How the results depend on the processing

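Members past the adjusted threshold numbered 0 as deposited, 4 with array weights, 1 with the 3-prime minus 5-prime covariate, and 0 to 3 when an array was left out, the 3 without 40 °C replicate 2. The counts over all tested probe sets were 0, 193, 44 and 0 to 69, the 69 again without that array. The 4 members with array weights, each lower at 45 °C, were OsAffx.32263.1.A1_at, LOC4351208, pinA and Os.9836.1.S1_at. Members at an unadjusted p under 0.05 numbered 29, but 69 (65 higher, 4 lower) after median centring, 7 without the intensity trend, 17 of 96 with 1 probe set per gene (17.7%, against 18.2% of 159), 107 of 504 with a member level of 11 (21.2%), 2 of 31 with a level of 13 (6.45%), and 19 to 39 when an array was left out. The median change of -0.05 became 0.21 after median centring and 0.018 after cyclic loess, and ran from -0.08 to -0.04 when an array was left out. The 50 members without overlap became 83 (79 higher, 4 lower) after median centring, 31 of 95 without shared-target probe sets (32.6%, against 31.4% of 159), 31 of 96 with 1 probe set per gene (32.3%), 147 of 504 at a level of 11 (29.2%), 7 of 31 at a level of 13 (22.6%) and 58 to 75 when an array was left out, where fewer arrays make overlap rarer. With a replicate block, 0 members passed, the smallest adjusted p over all tested was 0.283, and 31 members were at an unadjusted p under 0.05, LIP9 no longer among them; no call at the adjusted threshold changed. Among 53 named probe sets, the sign changed in 16 under median centring, 3 each under quantile normalization and cyclic loess, 11 each with array weights and the covariate, and 1 to 10 when an array was left out, most without 40 °C replicate 2. Reading the family patterns with case, an alternative chosen after seeing the data, gave 161 members and changed no count by over 1.5 times. Apart from the numbers of members and arrays, the causes of these shifts were not tested.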
